A study of Danio rerio with 12 samples.

Results

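The genes examined code for proteins of the pre-mRNA splicing machinery and for the heterogeneous nuclear ribonucleoproteins (hnRNPs) that coat nascent transcripts. They were chosen by name alone: every row of the count table whose gene name begins with srsf and a digit, snrp, hnrnp or hnrp, sf3a or sf3b, or prpf, with at least 10 counts over its 12 columns. This gave 76 of 32266 genes, made up of 12 genes for proteins of the small nuclear ribonucleoproteins (snRNPs), 9 subunits of splicing factor 3 (SF3), 13 pre-mRNA processing factors (PRPF), 18 serine- and arginine-rich (SR) proteins and 24 hnRNPs. Of these, 75 passed edgeR's filter on low counts, and the exception was a second *srsf3a* identifier (ENSDARG00000100815) with 1, 0 and 6 counts in the mutant pools and 1, 10 and 6 in the wild-type pools.

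RNA-Seq libraries were made from heads of 5 dpf zebrafish larvae (Danio rerio, WIK background), to ask how loss of *rb1* changes the transcriptome of the developing head. Mutants were homozygous for rb1Δ7 (*rb1*-/- in the sample labels), a TALEN-made frameshift deletion of 7 bases that is absent from +/+ wild-type siblings of the same heterozygous cross. The allele is carried by every cell of the larva and not by chosen cells, mutants lack a swim bladder, and a single allele was studied. Each genotype had 3 pools of 5 heads, with each pool sequenced in 2 lanes that were summed here. The libraries held between 41065256 and 47700950 counts. The targeted gene had 570, 491 and 422 counts in the mutant pools against 1221, 830 and 826 in the wild-type pools (log2 fold change -1.09, edgeR adjusted p = 0.0121).

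Splicing removes introns in steps carried out by the spliceosome, in which U1 snRNP marks the start of an intron, U2 snRNP binds its branch point, and the U4/U6.U5 tri-snRNP then brings in the catalytic center. Apart from U6, each of these snRNPs carries a ring of Sm proteins wrapped around its RNA. SR proteins bind exons and recruit the machinery, whereas hnRNPs bind introns and exons and often hinder it, and the balance between them shifts which exons are kept. Many of these genes are highly expressed in dividing cells and in the developing brain. Their RNA levels do not report how any transcript was spliced.

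Most splicing factor genes chosen by the naming rule stood higher in the *rb1*/*rb1* mutant heads. Of the families within the rule, the genes for snRNP proteins stood highest. Of the 75 genes tested, 25 rose and 0 fell in edgeR's quasi-likelihood test (adjusted p up to 0.05), whereas over all 22753 genes 3.82% passed as higher, 2.17% as lower and 5.99% in either direction. Before adjustment, p was under 0.05 for 48 members with higher and 1 with lower expression, against 12.8% and 10.5% of all genes. DESeq2 called 34 members higher and 1 lower, where it called 6.25% and 5.16% of all genes. The gene that was lower in both of these counts was *sf3b1*. The median log2 fold change (mutant over wild type) of the 75 was 0.31, a 1.24-fold difference, beside -0.011 over all genes tested, and 67 of the 75 were above 0, as were 48.2% of all genes. The changes were small. The study applied a stricter threshold (adjusted p up to 0.01, at least 1.5-fold) to DESeq2 results, and in DESeq2 9 members passed it here. In edgeR a single gene, *snrpg*, passed it, where 0.897% of all genes passed as higher, 0.286% as lower and 1.18% in either direction. In edgeR with total counts alone, without TMM scaling, 6 members passed it. For DESeq2 and for total counts alone, the share of all genes past this threshold is not given here. Because whole heads were used, more cells that express these genes and more RNA per cell cannot be told apart.

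The 3 mutant libraries were all above the 3 wild-type libraries for 54 of the 75 genes, or 72% (16.1% of all genes), and all below for *sf3b1* and *srsf5a* (13.2% of all genes), while 19 overlapped. Members together took 1.02%, 1.06% and 0.946% of the counts of mutant pools 1, 2 and 3, and 0.827%, 0.825% and 0.827% of those of the wild-type pools. Among the 25 genes that rose, mutant pool 3 was the highest mutant library for 16 and mutant pool 2 the lowest for 16. Wild-type pool 1 was the highest wild-type library for 19 of them.

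The number of genes that rose rested on particular libraries. It was 1 without mutant pool 1, 1 without wild-type pool 2 and 2 without wild-type pool 3, and 14 without wild-type pool 1, 20 without mutant pool 2 and 24 without mutant pool 3. Calls over all genes fell too, from 1363 in both directions to 250 without mutant pool 1, 214 without wild-type pool 2 and 557 without wild-type pool 3. The median over the 75 genes stayed between 0.29 and 0.34 in these 6 fits, and *snrpg* passed in 6 of 6 (edgeR adjusted p between 0.00649 and 0.0354). With pool number as a replicate block, 29 genes rose and 0 fell, and the 29 included all 25 (5.1% of all genes higher and 4.03% lower). The 4 added were *hnrnph1*, *hnrnpa1a*, *sf3b5* and *prpf31*.

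**Figure D1:**
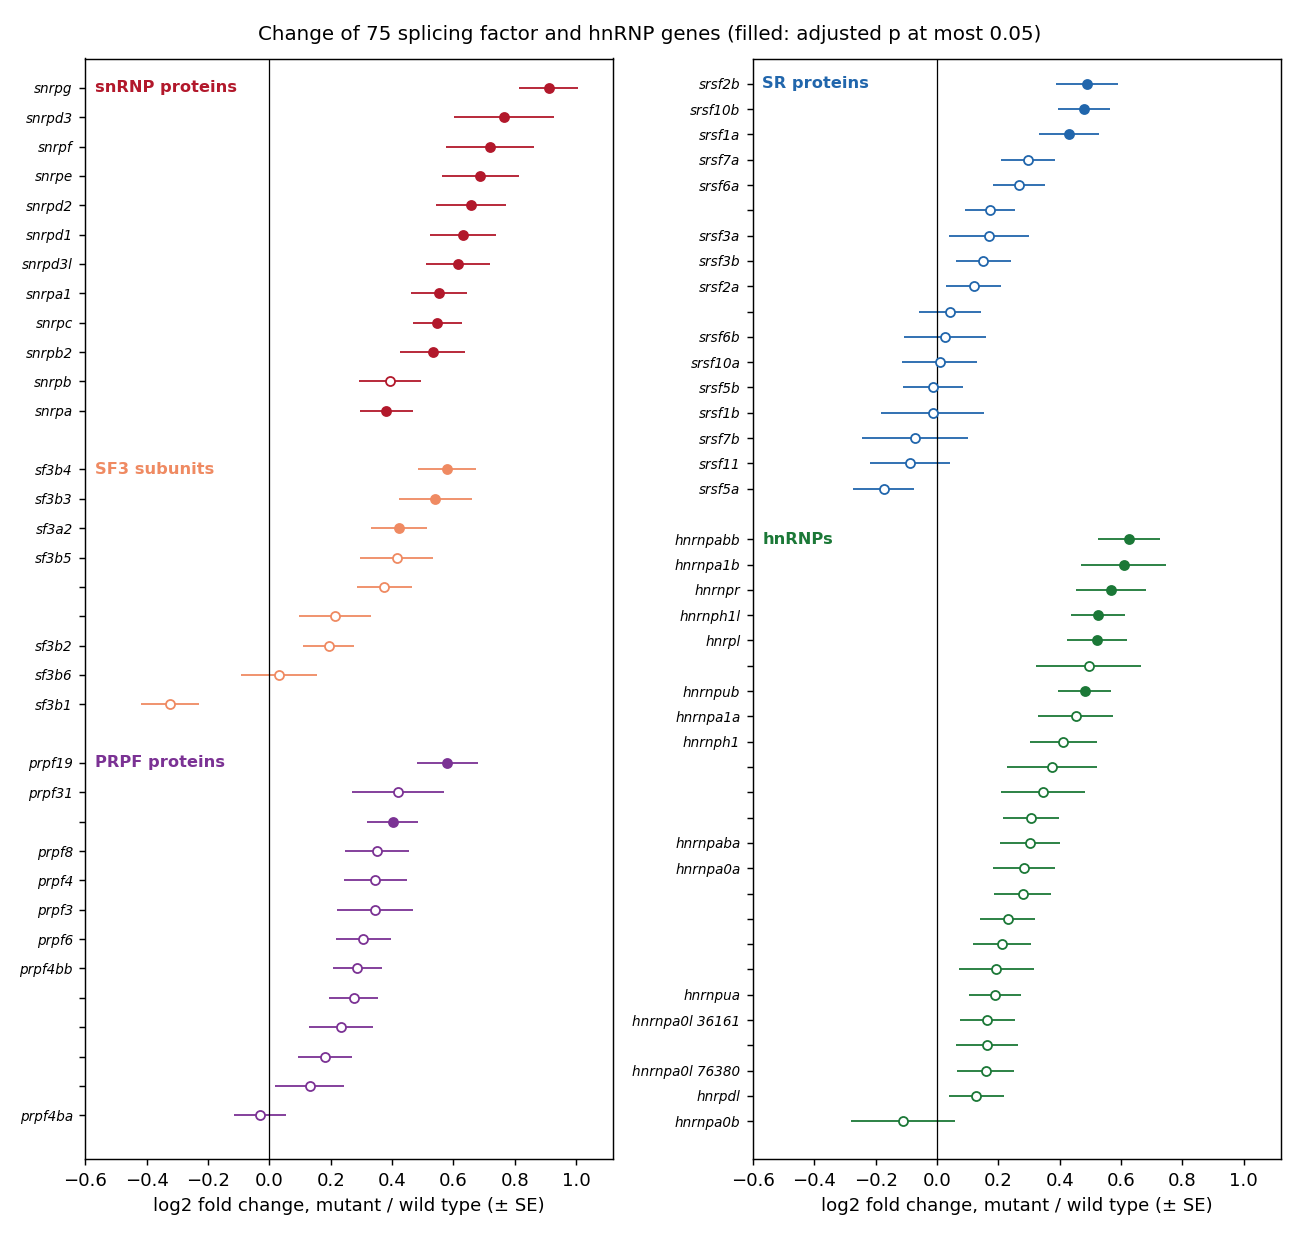
Log2 fold change (mutant over wild type) of the 75 genes tested, by family, with bars of 1 standard error from edgeR over 3 pools of each genotype; filled points have an adjusted p of at most 0.05, genes named in the text carry a label, and the digits after *hnrnpa0l* are the end of its Ensembl identifier. All 12 snRNP genes lie to the right of 0, from 0.38 to 0.91, while SR protein genes reach from -0.17 to 0.49.

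Markers of dividing cells were higher in the mutant as well. The paper reports both upregulated E2F targets and more mitotic cells in midbrain and retina sections of these mutants. From RNA of whole heads, more dividing cells and more marker RNA per cell cannot be told apart. All 12 genes of a list of proliferation markers, among them *mki67*, *pcna* and *cdk1*, stood higher in each mutant pool than in each wild-type pool. Of these 8 rose, with a median log2 fold change of 1.11, and 4 rose without wild-type pool 2, 5 without mutant pool 1, and 12 without wild-type pool 1, with pool number as a block or in DESeq2. Of all genes 3.82% rose in edgeR, 5.1% with the block and 6.25% in DESeq2, and 16.1% did not overlap upward. Their summed level was 666 to 749 FPKM in the mutant pools and 228 to 390 FPKM in the wild-type pools. Their part in the change of the splicing genes was not tested. Neuronal markers (10 genes) had a median of -0.011, with 0 past the threshold in edgeR, in DESeq2 or before adjustment. In a list of 10, 0 calls can also arise at the shares of all genes, which before adjustment were 12.8% higher and 10.5% lower. The median was 0.12 without mutant pool 3 and -0.092 without mutant pool 2. Before adjustment 3 were higher without mutant pool 3 and 1 with pool number as a block. For 1 gene the mutant pools were all below the wild-type pools (13.2% of all genes). The summed level of the 10 was 1177 to 1639 FPKM in the mutant against 1291 to 1423 FPKM in wild type. Of 8 photoreceptor markers, *rho* and *gnat1* fell, and the number that fell was 0 without mutant pool 1 or wild-type pool 2, 1 without wild-type pool 3, 5 without mutant pool 3 and 3 in DESeq2. Of all genes 2.17% fell in edgeR with all libraries and 5.16% in DESeq2. The heads also held transcripts of 3 liver genes, whose summed level was 803 to 2477 FPKM in the mutant and 3235 to 4377 FPKM in wild type. For all 3 every mutant pool was below every wild-type pool (13.2% of all genes). In edgeR 0 of the 3 passed and 2 were lower before adjustment (10.5% of all genes). Before adjustment 3 were lower in DESeq2 and with pool number as a block. After adjustment 1 was called lower by DESeq2 (5.16% of all genes), by edgeR with pool number as a block (4.03%) and by edgeR without mutant pool 2.

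Genes for the Sm ring showed the largest rises. The family's 8 genes code for the proteins B, D1, D2, D3, E, F and G, with D3 encoded by both *snrpd3* and *snrpd3l*. Of the 8 genes 7 rose (3.82% of all genes), and the median log2 fold change was 0.67. In CPM, which are counts scaled to library size with edgeR's TMM factors, expression of *snrpg* (ENSDARG00000099667) was 30.1, 28.7 and 32.8 CPM in mutant pools 1, 2 and 3 and 17.3, 15.4 and 16.0 CPM in wild-type pools 1, 2 and 3. Each mutant pool was well above each wild-type pool, and the means were 30.5 ± 2.09 CPM in the mutant and 16.2 ± 0.952 CPM in wild type (SD, n = 3). The log2 fold change was 0.91 ± 0.10 SE, a 1.88-fold rise (edgeR adjusted p = 0.00391).

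The other Sm genes followed, each without overlap between genotypes. SmF (*snrpf*) stood at 31.0, 27.2 and 35.2 CPM in mutant pools 1, 2 and 3 and 22.0, 16.3 and 18.4 CPM in wild-type pools 1, 2 and 3 (log2 fold change 0.72 ± 0.14 SE, edgeR adjusted p = 0.0308). SmE (*snrpe*), its neighbour in the ring, stood at 29.9, 26.9 and 33.6 CPM in mutant pools 1, 2 and 3 and 21.3, 17.4 and 17.4 CPM in wild-type pools 1, 2 and 3 (0.69 ± 0.13 SE, edgeR adjusted p = 0.0239). Mutant pool 3 was the highest library for both genes, and wild-type pool 1 the highest of its group. For *snrpd3* the values were 10.9, 9.44 and 12.5 CPM in mutant pools 1, 2 and 3 and 7.51, 5.40 and 6.38 CPM in wild-type pools 1, 2 and 3 (0.77 ± 0.16 SE, edgeR adjusted p = 0.0374), and with counts of lane a alone its adjusted p was 0.0536. The second D3 gene, *snrpd3l*, had 29.5, 27.5 and 32.8 CPM in mutant pools 1, 2 and 3 and 20.7, 19.7 and 18.2 CPM in wild-type pools 1, 2 and 3 (0.62 ± 0.10 SE, edgeR adjusted p = 0.0184). Both D3 genes code for the same ring position, and both rose. SmD2 (*snrpd2*) was 50.9, 45.2 and 58.7 CPM in mutant pools 1, 2 and 3 and 35.1, 31.5 and 31.7 CPM in wild-type pools 1, 2 and 3 (0.66 ± 0.11 SE, edgeR adjusted p = 0.0206). SmD1 (*snrpd1*) was 48.0, 47.4 and 52.7 CPM in mutant pools 1, 2 and 3 and 35.9, 31.0 and 28.7 CPM in wild-type pools 1, 2 and 3 (0.63 ± 0.11 SE, edgeR adjusted p = 0.0186). The ring member with the highest RNA level, *snrpb* at 96.7 ± 7.13 FPKM in wild type, differed by 0.39 ± 0.10 SE and did not pass in edgeR (adjusted p = 0.0654, 0.0538 with pool number as a block), although its groups did not overlap. It passed in DESeq2 (adjusted p = 0.0156) and in edgeR with total counts alone.

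Summed over the 8 Sm genes, expression was 464, 434 and 488 FPKM in mutant pools 1, 2 and 3 and 319, 273 and 282 FPKM in the wild-type pools. The genes with names in snrp for proteins particular to U1 and U2 snRNP rose as well, while the SF3 genes, also of U2, are described below. The U1 gene *snrpc*, whose product steadies the pairing of U1 with the start of the intron, was 31.3, 30.9 and 32.3 CPM in mutant pools 1, 2 and 3 and 21.8, 21.5 and 21.3 CPM in wild-type pools 1, 2 and 3 (log2 fold change 0.55 ± 0.080 SE, edgeR adjusted p = 0.0118), with little spread in either group. The U1 gene *snrpa* rose by 0.38 ± 0.087 SE (edgeR adjusted p = 0.0465), and the U2 genes *snrpa1* and *snrpb2* by 0.55 ± 0.092 SE (edgeR adjusted p = 0.0176) and 0.53 ± 0.11 SE (edgeR adjusted p = 0.0296). Another U1 gene, *snrnp70*, lay outside the naming rule and did not pass. Its groups overlapped (log2 fold change 0.11 ± 0.089 SE, edgeR adjusted p = 0.531). Of the other snrnp genes outside the rule, *snrnp40* rose (0.52, edgeR adjusted p = 0.0445). The genes *snrnp200*, *snrnp25*, *snrnp27*, *snrnp48* and *snrnp35* did not pass, with log2 fold changes from 0.39 down to -0.065 (edgeR adjusted p between 0.0578 and 0.790). With pool number as a block *snrnp200* passed (edgeR adjusted p = 0.0490). In all, 11 of the 12 snRNP genes within the rule rose (3.82% of all genes), with a median of 0.62. Without mutant pool 1, wild-type pool 2 or wild-type pool 3, the number that rose was 1, 1 and 2, and it was 11, 8 and 9 without mutant pool 2, mutant pool 3 or wild-type pool 1.

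**Figure D2:**
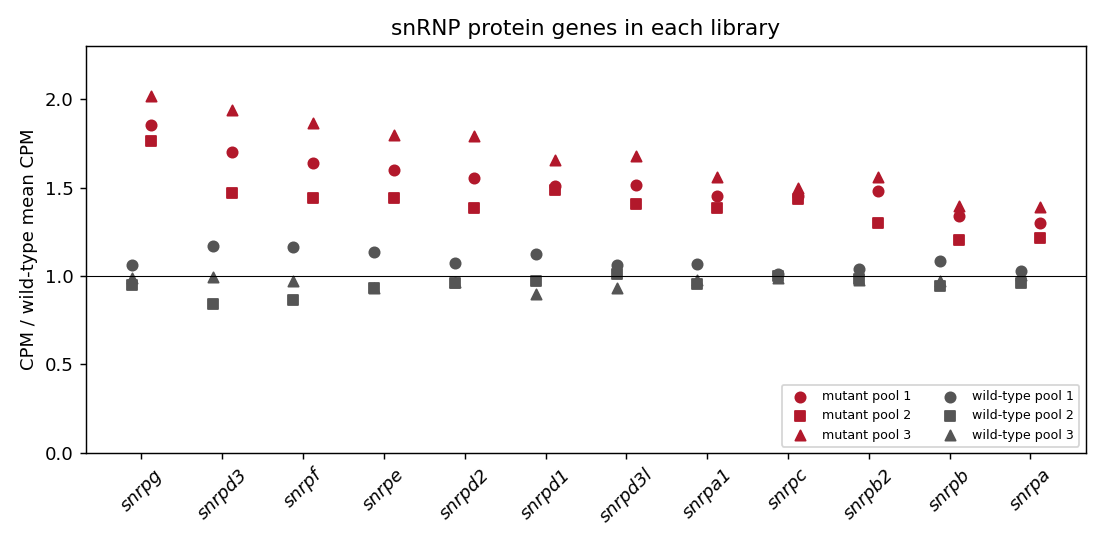
TMM-normalized CPM of the 12 snRNP protein genes in each library, divided by the wild-type mean of the gene, on an axis that starts at 0. Every mutant point is above every wild-type point of the same gene, and mutant pool 3 is the highest library of each gene.

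Sm genes are short, and across the members shorter genes tended to have larger rises, less so without the snRNP genes. Exonic lengths of the Sm genes ran from 589 to 1231 bases. Across the 75 genes, which are not independent replicates and share libraries, log2 fold change and log2 exonic length had Pearson's r = -0.52 and Spearman's rho = -0.44. Without the Sm genes r was -0.27 and rho -0.25 over 67 genes, and without all the snRNP genes r was -0.20 and rho -0.16 over 63. Over all 22753 genes r was -0.037, and the 3216 genes within the Sm length range had a median log2 fold change of 0.010, with 3.39% of them risen in edgeR. This comparison was chosen after the values had been seen.

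**Figure D3:**
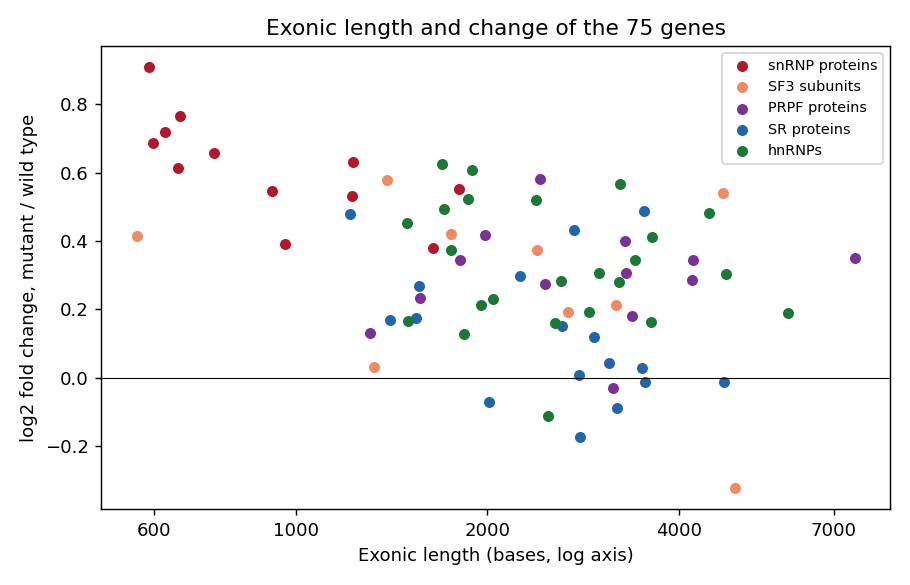
Log2 fold change (mutant over wild type) against exonic length of the 75 genes (bases, log axis), colored by family. Sm and other snRNP genes sit at the upper left, *sf3b1* is the lowest point at -0.32, and r over all points is -0.52.

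SF3 is the part of U2 snRNP that holds the branch point. Of its 9 genes, 8 had a log2 fold change above 0, and 1, *sf3b1*, was below 0 without passing in edgeR. Of the 9, 3 rose and 0 fell (3.82% and 2.17% of all genes), with a median log2 fold change of 0.37. In 6 the groups did not overlap upward (16.1% of all genes). Expression of *sf3b4* was 34.4 ± 2.09 CPM in the mutant and 23.0 ± 1.49 CPM in wild type (SD, n = 3), with a log2 fold change of 0.58 (edgeR adjusted p = 0.0167). The scaffold gene *sf3b3* had 151 ± 15.0 CPM in the mutant and 104 ± 11.2 CPM in wild type (SD, n = 3), with a log2 fold change of 0.54 (edgeR adjusted p = 0.0414). The third, *sf3a2*, had 44.1 ± 3.08 CPM in the mutant and 32.9 ± 1.57 CPM in wild type (SD, n = 3), with a log2 fold change of 0.42 (edgeR adjusted p = 0.0386). In humans, loss of one SF3B4 copy causes Nager syndrome, a craniofacial disorder. Without mutant pool 1, wild-type pool 2 or wild-type pool 3 the number that rose was 0, and it was 1 without mutant pool 3 or wild-type pool 1. DESeq2 and edgeR with total counts alone each called 5 of the 9 higher. Over all genes, DESeq2 called 6.25% higher, and edgeR with total counts alone called 1316 of 22753 genes higher.

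The gene for the largest SF3B subunit was lower in the mutant libraries. This gene, *sf3b1*, which codes for the clamp around the branch point and is often mutated in human myelodysplasia, had 540.3, 579 and 513 CPM in mutant pools 1, 2 and 3 and 641, 708 and 694 CPM in wild-type pools 1, 2 and 3. All mutant pools were below all wild-type pools. The log2 fold change was -0.32 ± 0.094 SE, which missed the threshold in edgeR (adjusted p = 0.0883, 0.0968 with pool number as a block) and passed it in DESeq2 (adjusted p = 0.0272). It was also the SF3 gene with the highest RNA level, at 136 ± 7.29 FPKM in wild type, and the next, *sf3b2*, had 40.4 ± 1.11 FPKM. The log2 ratio of *sf3b1* to its partners, chosen after its values had been seen and given with no test, was lower in the mutant by 0.52 against *sf3b2*, 0.87 against *sf3b3*, 0.90 against *sf3b4* and 0.74 against *sf3b5*, with no overlap of the groups. In every mutant pool *sf3b1* was below, and these partners above, every wild-type pool. The lack of overlap follows from this and adds nothing to it. Against *sf3b6*, which touches the branch point adenosine, the ratio was lower by 0.35 and the groups overlapped.

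Among the 13 PRPF genes 2 rose, 0 fell and the median log2 fold change was 0.31, with 10 genes without overlap upward. Of all genes 3.82% rose, 2.17% fell and 16.1% did not overlap upward. Prp19 is a ubiquitin ligase needed to activate the spliceosome, and *prpf19* was 79.2, 74.1 and 80.7 CPM in mutant pools 1, 2 and 3 and 57.8, 50.4 and 48.4 CPM in wild-type pools 1, 2 and 3 (log2 fold change 0.58 ± 0.10 SE, edgeR adjusted p = 0.0184). Wild-type pool 1 was the highest of its group and still well below the mutant pools. Without mutant pool 1, wild-type pool 2 or wild-type pool 3 the number of PRPF genes that rose was 0, and it was 1 without mutant pool 2 or wild-type pool 1. The tri-snRNP genes *prpf3*, *prpf4*, *prpf6*, *prpf8* and *prpf31*, whose human counterparts are mutated in retinitis pigmentosa, had log2 fold changes between 0.31 and 0.42 and did not overlap, and none passed in edgeR (adjusted p between 0.0904 and 0.144). With pool number as a block *prpf31* passed (edgeR adjusted p = 0.0357). In DESeq2 *prpf8* (adjusted p = 0.039) and *prpf6* (adjusted p = 0.0471) passed. There *prpf3*, *prpf4* and *prpf31* did not pass (DESeq2 adjusted p between 0.0627 and 0.129). DESeq2 called 5 of the 13 higher (6.25% of all genes), and edgeR with total counts alone 6 (1316 of 22753 genes).

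The SR family had the smallest median change of the 5 families, with a median log2 fold change of 0.12. Of its 17 genes 3 rose and 0 fell, against 3.82% and 2.17% of all genes. In 8 genes the groups did not overlap upward (16.1% of all genes), in *srsf5a* they did not overlap downward (13.2% of all genes), and in 8 they overlapped. Expression of *srsf1a* (ENSDARG00000057691), a gene for the founding SR protein, was 209, 204 and 187 CPM in mutant pools 1, 2 and 3 and 157, 152 and 136 CPM in wild-type pools 1, 2 and 3. The lowest mutant pool was above the highest wild-type pool, with a log2 fold change of 0.43 ± 0.10 SE (edgeR adjusted p = 0.0456). This value lay close to the threshold, and in edgeR the adjusted p was 0.0511 with RLE size factors and 0.0516 without the filter on low counts.

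The second copy, *srsf1b*, had 108, 117 and 75.1 CPM in mutant pools 1, 2 and 3 and 92.2, 111 and 99.3 CPM in wild-type pools 1, 2 and 3. Its groups overlapped, with mutant pool 3 the lowest of the 6 libraries, and the log2 fold change was -0.014 ± 0.17 SE (edgeR adjusted p = 0.973). In mammals SRSF10 represses splicing once it is dephosphorylated, in mitosis and after heat shock. Its gene copy *srsf10b* stood at 20.5, 20.3 and 20.4 CPM in mutant pools 1, 2 and 3 and 14.6, 14.7 and 14.5 CPM in wild-type pools 1, 2 and 3, with hardly any spread within a genotype (0.48 ± 0.085 SE, edgeR adjusted p = 0.0213). The other copy, *srsf10a*, stood at 46.3, 49.5 and 41.3 CPM in mutant pools 1, 2 and 3 and 48.2, 49.5 and 38.6 CPM in wild-type pools 1, 2 and 3, with overlap (0.0087 ± 0.12 SE, edgeR adjusted p = 0.977). Of the genes for SC35, the SR protein that marks nuclear speckles, *srsf2b* was 46.9, 49.4 and 40.6 CPM in mutant pools 1, 2 and 3 and 30.6, 33.7 and 33.3 CPM in wild-type pools 1, 2 and 3 (0.49 ± 0.10 SE, edgeR adjusted p = 0.0346). Its copy *srsf2a* was 199 ± 8.33 CPM in the mutant and 183 ± 9.63 CPM in wild type (SD, n = 3), and its groups were narrowly apart (0.12 ± 0.090 SE, edgeR adjusted p = 0.479). Without mutant pool 1, wild-type pool 1, wild-type pool 2 or wild-type pool 3, 0 of the 17 SR genes passed in edgeR, and without mutant pool 2 the number was 1.

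The SR genes with the highest RNA levels did not rise. In wild type, *srsf5a* had 159 ± 11.4 FPKM and *srsf11* had 102 ± 7.38 FPKM. Expression of *srsf5a* was 380.0, 406 and 423 CPM in mutant pools 1, 2 and 3 and 440.1, 495 and 429 CPM in wild-type pools 1, 2 and 3, with each mutant pool below each wild-type pool, and the change did not pass in edgeR (-0.17 ± 0.10 SE, edgeR adjusted p = 0.339). For *srsf11* the log2 fold change was -0.089 ± 0.13 SE and the groups overlapped. Mutant pool 3 was the lowest library for *srsf1b*, *srsf7b* and *srsf11*, and the median deviation of the SR family from wild type was 0.13, 0.21 and 0.0004 (log2) in mutant pools 1, 2 and 3 against -0.027, 0.060 and -0.034 in the wild-type pools. Of the 5 families, it was the one whose library medians overlapped between genotypes.

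**Figure D4:**
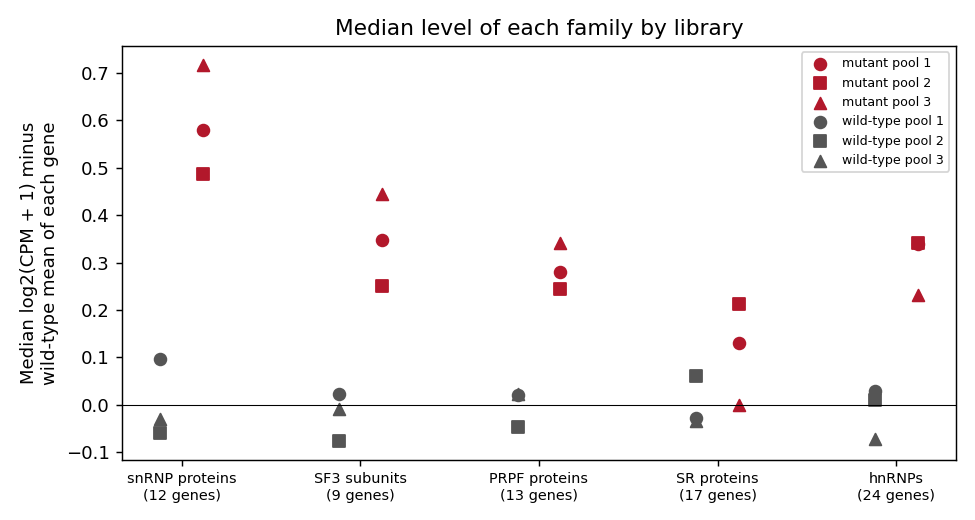
Median of log2(CPM + 1) minus the wild-type mean of each gene, for the tested genes of the 5 families in each library; red marks mutant and gray wild type. The snRNP family has the highest mutant medians (0.49 to 0.72), and the SR family is the one in which mutant pool 3 (0.0004) falls within the wild-type range.

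Genes for hnRNPs have high RNA levels in these heads. In wild type the highest of all members was *hnrnpa0l* (ENSDARG00000036161) at 275 ± 6.99 FPKM, and *hnrpdl* (139 ± 8.58 FPKM) and *hnrnpaba* (123 ± 10.8 FPKM) followed *srsf5a*, with *sf3b1* between them at 136 ± 7.29 FPKM. The gap from *hnrnpa0l* to *srsf5a* was 115 FPKM, while *srsf5a* exceeded *hnrpdl* by 20.3 FPKM, about the sum of their SDs (19.9 FPKM), and the next neighbours in this order lay closer than the sum of their SDs. Of 24 hnRNP genes, 6 rose and 0 fell (3.82% and 2.17% of all genes), with a median log2 fold change of 0.30. In 18 the groups did not overlap upward (16.1% of all genes). The gene with the highest level was not among those that rose: *hnrnpa0l* had 439.7, 473 and 503 CPM in mutant pools 1, 2 and 3 and 412, 423 and 428 CPM in wild-type pools 1, 2 and 3 (0.16 ± 0.091 SE, edgeR adjusted p = 0.327). A second identifier of that name (ENSDARG00000076380) differed by 0.16 ± 0.093 SE (edgeR adjusted p = 0.358). It is named *gzf1* in the name table and was kept among the 24 by its name in the counts.

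The hnRNP gene with the largest rise was *hnrnpabb*, a copy of the gene for the A/B protein that binds RNA in nucleus and cytoplasm, at 313, 301 and 347 CPM in mutant pools 1, 2 and 3 and 223, 204 and 195 CPM in wild-type pools 1, 2 and 3. The groups were far apart (0.63 ± 0.10 SE, edgeR adjusted p = 0.0160). A copy of the gene for hnRNP A1, a repressor of exons, followed: *hnrnpa1b* had 268, 273 and 223 CPM in mutant pools 1, 2 and 3 and 185, 176 and 139.5 CPM in wild-type pools 1, 2 and 3 (0.61 ± 0.14 SE, edgeR adjusted p = 0.0452). Its copy *hnrnpa1a* differed by 0.45 ± 0.12 SE and did not pass in edgeR (adjusted p = 0.0737), whereas it passed with pool number as a block (adjusted p = 0.0470), without mutant pool 3 (adjusted p = 0.0228) and in DESeq2 (adjusted p = 0.0245). The other 4 that rose were *hnrnpr* (log2 fold change 0.57, edgeR adjusted p = 0.0315), whose human product travels with mRNA into motor axons, *hnrnph1l* (0.52, edgeR adjusted p = 0.0180), of a family that binds runs of G, *hnrpl* (0.52, edgeR adjusted p = 0.0268), which binds CA-rich RNA, and *hnrnpub* (0.48, edgeR adjusted p = 0.0224), for the nuclear scaffold protein hnRNP U. Without mutant pool 1, wild-type pool 2 or wild-type pool 3 none of the 24 passed, and without wild-type pool 1, mutant pool 2 and mutant pool 3 the number was 3, 4 and 10. At the low end, *hnrnpa0b* differed by -0.11 ± 0.17 SE (edgeR adjusted p = 0.751) with overlapping groups. A row named *HNRNPUL1* in capitals lay outside the naming rule (0.18, edgeR adjusted p = 0.309).

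Many of these genes exist as a and b copies left by the genome duplication of teleost fish, and in most pairs the ratio between copies did not overlap between genotypes. For each of 12 pairs with both copies tested, the log2 ratio of FPKM of a to b was compared between genotypes, so that depth and scaling cancel. In 10 of the 12 the mutant and wild-type ratios did not overlap, against 25.1% of 2618 pairs of symbols in the whole table that end in a and b. The 2618 were paired by symbol alone and not matched for read counts. Pairs that are not copies were removed from the members and not from the 2618. The median size of the difference was 0.32 for these 12 pairs and 0.18 for all such pairs. Of the 12 pairs, 6 had 1 copy that rose and 0 had both. By exact two-sided permutation tests no pair could reach a p below 0.1, which those 10 pairs had (0.12 after Benjamini-Hochberg adjustment over the 12). Only uniquely aligned reads were counted, so reads from stretches that copies share are missing from both.

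The log2 ratio of *srsf1a* to *srsf1b* was 1.33, 1.18 and 1.69 in mutant pools 1, 2 and 3 and 1.14, 0.82 and 0.83 in wild-type pools 1, 2 and 3. The mutant mean was higher by 0.47, so that *srsf1a* RNA was 1.91 times that of *srsf1b* in wild type and 2.64 times in the mutant, per length. For *srsf10a* over *srsf10b* the ratio was -0.026, 0.088 and -0.18 in mutant pools 1, 2 and 3 and 0.52, 0.55 and 0.21 in wild-type pools 1, 2 and 3, a difference of -0.47. Here the b copy gained on the a copy, and the mean ratio of a to b was 1.34 in wild type and 0.973 in the mutant, where a was still the higher copy in mutant pool 2. The ratio of *srsf2a* to *srsf2b* was 2.34, 2.33 and 2.49 in mutant pools 1, 2 and 3 and 2.75, 2.74 and 2.77 in wild-type pools 1, 2 and 3 (-0.37), with little spread in wild type. For *hnrnpa0a* over *hnrnpa0b* it was 4.57, 4.64 and 4.93 in mutant pools 1, 2 and 3 and 4.28, 4.43 and 4.21 in wild-type pools 1, 2 and 3 (0.41), where the a copy already had most of the RNA. The *srsf7a* to *srsf7b* ratio was 3.28, 2.87 and 3.54 in mutant pools 1, 2 and 3 and 2.93, 2.76 and 2.80 in wild-type pools 1, 2 and 3, a difference of 0.39 whose groups overlapped (exact permutation p = 0.2).

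Differences in the pairs *hnrnpaba*/*hnrnpabb*, *prpf4ba*/*prpf4bb* and *hnrnpua*/*hnrnpub* were -0.32, -0.32 and -0.29, in favor of the b copy, and those in *srsf6a*/*srsf6b* favored a by 0.25. For *hnrnpa1a*/*hnrnpa1b* and *srsf5a*/*srsf5b* they were -0.17 and -0.16. The ratio of *srsf3a* to *srsf3b* differed by 0.015 and overlapped (exact permutation p = 0.8). Taking pools by number, 11 of the 12 pairs differed in the same direction in 3 of 3 pools. For the 10 pairs without overlap this follows from the lack of overlap and adds nothing to it. Neither copy was favored as a rule, since a gained in 5 pairs, counting *srsf3a*, and b in 7.

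**Figure D5:**
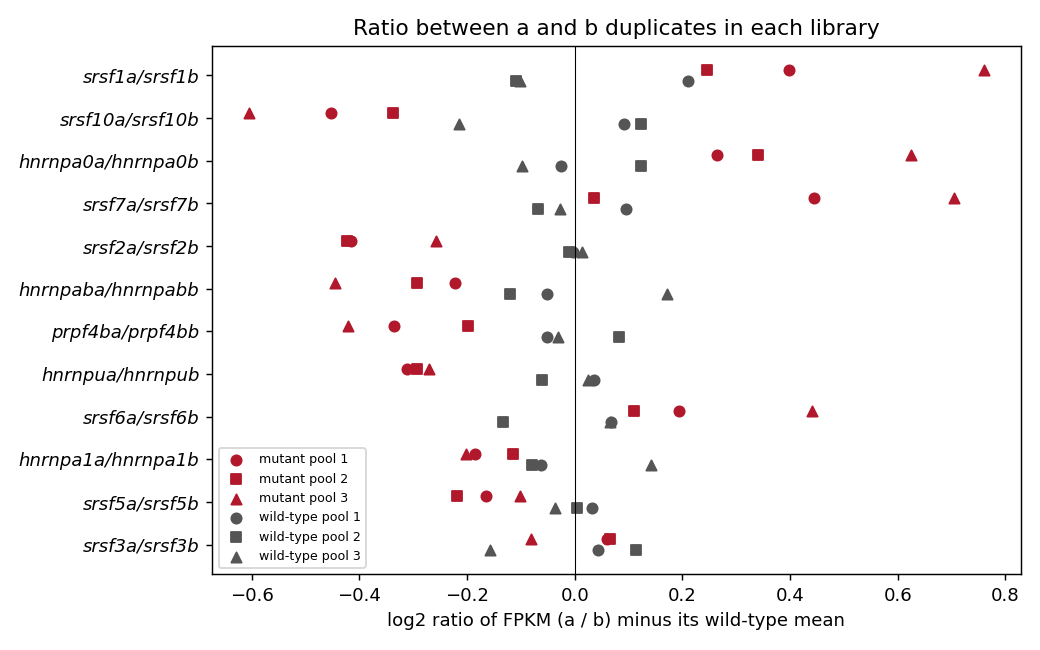
Log2 ratio of FPKM of the a copy to the b copy in each library, minus the wild-type mean of the pair, for 12 duplicate pairs. In 10 pairs the red mutant points lie wholly to one side of the gray wild-type points, and the largest differences are those of *srsf1a*/*srsf1b* (0.47) and *srsf10a*/*srsf10b* (-0.47).

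Other genes of the splicing pathway were taken from lists made by function. Of 58 further spliceosome genes tested, 9 rose, 0 fell and the median log2 fold change was 0.26, with 35 that did not overlap upward. Of all genes 3.82% rose, 2.17% fell and 16.1% did not overlap upward. Before adjustment 12.8% of all genes were higher and 10.5% lower. DESeq2 called 6.25% of all genes higher, and edgeR with pool number as a block 5.1%. Of the 58 genes 34 were higher and 0 lower before adjustment, DESeq2 called 19 higher, edgeR with total counts alone 18 and edgeR with pool number as a block 12. With total counts alone, 1316 of 22753 genes were called higher. In edgeR 0 passed without mutant pool 1, wild-type pool 2 or wild-type pool 3, 4 without wild-type pool 1 and 5 without mutant pool 3. The 4 with the lowest adjusted p were *lsm7* (46.3 ± 4.24 against 30.5 ± 2.09 CPM, log2 fold change 0.60 ± 0.10, edgeR adjusted p = 0.0184), of the ring that binds U6, *ddx39ab* (189 ± 12.3 against 126 ± 12.1 CPM, 0.59 ± 0.11, edgeR adjusted p = 0.0221), an RNA helicase of splicing and mRNA export, *isy1* (26.1 ± 3.02 against 18.2 ± 0.386 CPM, 0.52 ± 0.11, edgeR adjusted p = 0.0345), part of the catalytic spliceosome, and *u2af2a* (84.1 ± 3.90 against 63.9 ± 2.50 CPM, 0.40 ± 0.085, edgeR adjusted p = 0.0378), whose product binds the pyrimidine tract before the intron end.

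Genes that assemble snRNPs gave the other group with several rises. Of 14 tested, 4 rose, 0 fell, and the median log2 fold change was 0.38. Before adjustment 9 were higher and 0 lower, DESeq2 called 7 higher, edgeR with pool number as a block called 5, and edgeR called 0 without mutant pool 1 or wild-type pool 2 and 1 without wild-type pool 3. Of all genes 3.82% rose and 2.17% fell in edgeR, and 12.8% were higher and 10.5% lower before adjustment. DESeq2 called 6.25% of all genes higher and 5.16% lower, and edgeR with pool number as a block called 5.1% higher. The genes that rose were *phax* (32.4 ± 1.38 against 21.0 ± 0.510 CPM, 0.63 ± 0.084, edgeR adjusted p = 0.00850), the adaptor that exports newly made snRNA, *prmt5* (42.5 ± 3.71 against 27.4 ± 1.14 CPM, 0.63 ± 0.10, edgeR adjusted p = 0.0127), which methylates Sm proteins before they are loaded, *gemin6* (11.3 ± 0.449 against 7.23 ± 0.425 CPM, 0.64 ± 0.11, edgeR adjusted p = 0.0172) and *gemin5* (17.8 ± 0.611 against 11.8 ± 1.56 CPM, 0.58 ± 0.12, edgeR adjusted p = 0.0339), both of the SMN complex that loads the ring. Of these 4, *phax* also passed the study's threshold in edgeR. Of 11 kinases and import factors of SR proteins, 0 were called in either direction by edgeR, by DESeq2 or before adjustment. In a list this small, 0 calls can also arise at the shares of all genes given above. The median log2 fold change was 0.14, and 9 of the 11 were above 0. With total counts alone 3 were higher before adjustment, and with pool number as a block 1 was. For these fits the share of all genes before adjustment is not given here.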

How the data were processed

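RNA-Seq of 3 mutant and 3 wild-type pools of 5 heads was read in 2 lanes with 50 base single reads. GSNAP was used by the authors for alignment to GRCz10 with at most 5 mismatches, and HTSeq for counting the reads that aligned at one place only. The deposited counts are raw, per gene and lane. The strand setting is not given in the sources used here, so genes that overlap on opposite strands, and near-identical copies, are uncertain. The deposited FPKM values were made by the authors from those counts and exonic lengths. A deposited table of the authors' own comparison holds log2 fold changes, standard errors and p-values for each gene and was not used.

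Counts of both lanes were summed, so n is 3 pools of each genotype, and p-values measure the spread between pools. Genes were tested with edgeR 4.0.16 (R 4.3.3; quasi-likelihood test, TMM, default low-count filter, no term but genotype). P-values were adjusted by Benjamini-Hochberg over 22753 genes, and the standard error is the log2 fold change over the square root of F. Single genes are said to have risen or fallen where the adjusted p was 0.05 or less. The threshold of the study is 0.01 with at least 1.5-fold, which the study applied to DESeq2 results. CPM values are TMM-normalized, and levels of different genes are compared in FPKM, as the mean of lanes. Ratios of copies were compared with exact permutation tests (scipy 1.17.1). Alternatives were DESeq2 1.42.0, RLE size factors, total counts alone, no filter, pool number as a block, each lane alone and each library left out. Same-numbered pools, which are different animals, deviated together from their group means (correlations 0.41, 0.43 and 0.29 across genes), so blocked values are given where they change the call of a gene named here or the count of a list. The edgeR and DESeq2 steps were tested on simulated data.

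Genes, families and lists were chosen with earlier results of these data known. Genes named are those past the study's threshold, the 8 largest rises and 8 largest falls, the 5 highest levels, *srsf1a*, the 5 pairs with the largest ratio difference, copies of all these, and up to 4 genes a list that passed. Other members, and the snrnp genes outside the rule, are named for their role or because they passed, after their values were seen. The values of a member that was among those that rose are not reported here. Of 76 identifiers, 75 were found in the name table. There the *hnrnpa0l* identifier ENSDARG00000076380 is named *gzf1*, and the tested *srsf3a* identifier (ENSDARG00000025397) is named *SRSF3*. No coordinates or sequences were printed, since no genome was used here.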

Additional observations from a re-analysis of the deposited data

How the results depend on the processing

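The number of genes past the study's threshold was 9 with DESeq2, the test the study used, and 6 with total counts alone. It was 1 in the main edgeR fit, and 0 to 2 with one library left out. The number that fell was 1 (*sf3b1*) with DESeq2 against 0. The number past an adjusted p of 0.05 was 29 with the replicate block on pool number against 25, and the block lost no call among members, gaining 4; among the other genes named as risen it lost *khdrbs1a* and no other call. With DESeq2, RLE size factors, total counts, no filter, lane a and lane b it was 35, 24, 33, 23, 24 and 22, and with one library left out it ranged from 1 to 24. The median log2 fold change was 0.37 with total counts alone, which moved the median over all genes from -0.011 to 0.049, and 0.29 to 0.34 with a library left out. Total counts alone also moved the split of all called genes, from 870 higher of 1363 to 1316 of 1750. Non-overlapping members that were lower numbered 1 with total counts alone and 1 with lane a, against 2, and 2 to 3 with a library left out.

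Among the named genes and ratios, directions turned for members close to 0. With total counts alone *prpf4ba*, *srsf1b* and *srsf5b* were at 0.030, 0.054 and 0.048, with lane a at 0.0046, 0.024 and 0.010, and with lane b *srsf10a* was at -0.033. With a library left out, *srsf5b* ranged from -0.051 to 0.049, *srsf10a* from -0.095 to 0.076, *hnrnpa0b* from -0.20 to 0.046, *srsf11* from -0.18 to 0.027, *srsf1b* from -0.14 to 0.15, *srsf7b* from -0.24 to 0.090, and the *srsf3a* to *srsf3b* ratio from -0.064 to 0.072. The cause was not tested. The number of non-overlapping pairs was 10 to 11 in all fits. The ratios do not depend on the scaling or the test, and leaving a library out cannot create an overlap. Those fits could therefore not lower the number. Without TMM or with RLE the median of each family stayed above 0. A search of promoters for E2F motifs and the arginine-serine content of the proteins were planned and not run.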

Other observations

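A further list of splicing regulators had a median change near that of all genes. It held genes particular to neurons or other tissues, such as rbfox, nova and elavl genes. It also held broadly expressed genes, such as *fus*, *tardbp* and *ptbp1a*. Of 41 tested, 2 rose and 0 fell in edgeR, where 3.82% of all genes rose and 2.17% fell. In 8 the groups did not overlap upward and in 3 downward, against 16.1% and 13.2% of all genes. The median log2 fold change was 0.037 beside -0.011 over all genes. Before adjustment 6 were higher and 2 lower, against 12.8% and 10.5% of all genes. DESeq2 called 4 higher (6.25% of all genes), and edgeR with pool number as a block called 3 (5.1% of all genes). The edgeR count was 0 without mutant pool 1, wild-type pool 2 or wild-type pool 3 and 5 without mutant pool 3. Without mutant pool 2 the median was -0.059. The genes that rose were *syncripl* (87.2 ± 5.10 against 60.4 ± 5.85 CPM, log2 fold change 0.53 ± 0.10, edgeR adjusted p = 0.0280), related to *hnrnpr*, and *khdrbs1a* (891 ± 44.1 against 673 ± 17.7 CPM, 0.40 ± 0.088, edgeR adjusted p = 0.0399), for the RNA-binding protein Sam68, which with pool number as a block had an adjusted p of 0.0604 in edgeR. The block added *rbm4.1* (edgeR adjusted p = 0.0258 with it and 0.114 without) and *rbm25b* (0.0487 and 0.0549). The summed level of the list was 1533 to 1896 FPKM in the mutant pools and 1435 to 1529 FPKM in the wild-type pools. The difference between these regulators and the core machinery was not tested.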
